A study of Mus musculus with 312 samples.

Results

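Wnt signalling was examined through 10 genes chosen by name, 4 ligands (Wnt5a, Wnt6, Wnt10a and Wnt11), the receptors Fzd1 and Fzd7, the co-receptors Lrp5 and Lrp6, the feedback target Axin2 and the transducer Ctnnb1, which encodes beta-catenin. They are 10 of the 25136 genes with a current symbol that were used, and all 10 were found by the symbol of their Entrez gene ID. Gene positions below are those of RefSeq on GRCm38.p6, from the first to the last annotated base. RNA of single mammary cells from FVB/NJ mice, labelled as basal epithelium, was turned into cDNA on the Fluidigm C1, a chip-based system with a reaction chamber for each cell. The adult cells were sorted as lineage-negative, CD29-high and CD24-positive from mice pooled for each sort, and the titles of 112 of them carry the mark (2), which the labels do not explain, while 125 carry none. The 75 pregnancy cells bear a basal label, but the study's text speaks of total epithelium for the pregnancy cells of this system, and their day of pregnancy is not in the labels. All groups share strain, organ and system, with no genetic change and no agent named.

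Wnt proteins are secreted, lipid-modified ligands that bind a Frizzled receptor together with Lrp5 or Lrp6 on the target cell. In the canonical branch this stops a complex of Axin, Apc and kinases from marking beta-catenin for destruction, so that beta-catenin reaches the nucleus and acts with Tcf and Lef factors on targets such as Axin2, which feeds back on the complex. In the mammary gland, Wnt signals act on placode formation, branching and the basal compartment, and Wnt5a and Wnt11 are known mainly for branches that do not need beta-catenin.

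A cell was retained with at least 50000 read pairs in the genes used and at least 1000 of these genes detected, which left 81 marked adult, 58 unmarked adult and 71 pregnancy cells. Levels are given as CPM, the read pairs of a gene per 1000000 read pairs of its cell in the genes used. Each GEO sample is 1 cell and no animals are named, so each group was treated as 1 sample, no test was made, and no difference below has a replicate check. All pregnancy titles have the same form, so the stage cannot be told apart from the capture run. A gene was called detected in a cell with at least 1 read pair after the cell had been thinned at random to 50000 read pairs. The 95% intervals of such shares are exact Clopper-Pearson intervals, and they cover counting error only.

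The median retained cell had 174910 read pairs among marked adult cells, 101320.5 among unmarked adult cells and 230645 among pregnancy cells. At equal depth the median cell held 2312, 2220.5 and 3221 genes in the same order, and mitochondrial genes took a median of 9.65%, 15.6% and 18.4% of all reads. At least 6 of 11 core basal genes reached 100 CPM in 76 marked adult, 51 unmarked adult and 70 pregnancy cells, so the basal label was met in most cells of each group. Summed over 7 pan-luminal genes, the medians were 805, 594 and 603 CPM and the maxima 3692, 12581 and 5900 CPM. Hormone-sensing luminal genes and immune genes had summed medians of 0 in each group. Their maxima were 2165, 15621 and 1037 CPM for the former and 52038, 255 and 294 CPM for the latter. The summed level of 8 fibroblast genes had medians of 0, 28.8 and 619 CPM and maxima of 4688, 38217 and 5782 CPM in the 3 groups, with Lum and Dpt at 0 reads in the marked set and no list gene at 0 in the others. Of these 8 genes, only Pdgfra was at least 2-fold higher in pregnancy than in both adult sets. Among all 8174 genes that averaged 20 CPM or more in any group, 9.87% were. Only Dcn was found in a share of pregnancy cells whose interval lay above both adult ones. The median log2 ratio of the 8 genes was 0.53 over the marked set and -1.46 over the unmarked set. The summed level of 10 proliferation genes had medians of 0, 0 and 286 CPM, with maxima of 7390.0, 4857 and 6201 CPM. Of 7 milk protein genes, 5 averaged 20 CPM or more in any group. All 5 were at least 2-fold higher in pregnancy than in both adult sets, beside 9.87% of all genes at that mean. Between the adult sets, 4 of them were at least 2-fold higher in the unmarked set, beside 16.8% of all genes. Summed over the 7 genes, a cell held at most 624, 8844 and 229160.0 CPM in the 3 groups, with medians of 3.60, 0 and 137 CPM. Lalba was at 0 reads in the marked set and Wap in the unmarked set. The part of these differences in the results below was not tested.

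Fzd7 and Lrp6, a receptor and a co-receptor, were found in 29.3 to 39.7% of the cells of each adult set and in most pregnancy cells, and Ctnnb1 was found in 85.2 to 98.6% of the cells of each group. Each of the 4 ligands was found in fewer cells, at most 40.8% of a group, and the 5 highest cells held at least 69.7% of its summed level in each group. Axin2 and Lrp5 were close to the limit of detection in all groups. With 10 CPM added to each mean, none of the 7 genes that averaged 20 CPM or more in any group differed at least 2-fold in 1 direction between pregnancy and both adult sets.

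**Figure D1:**
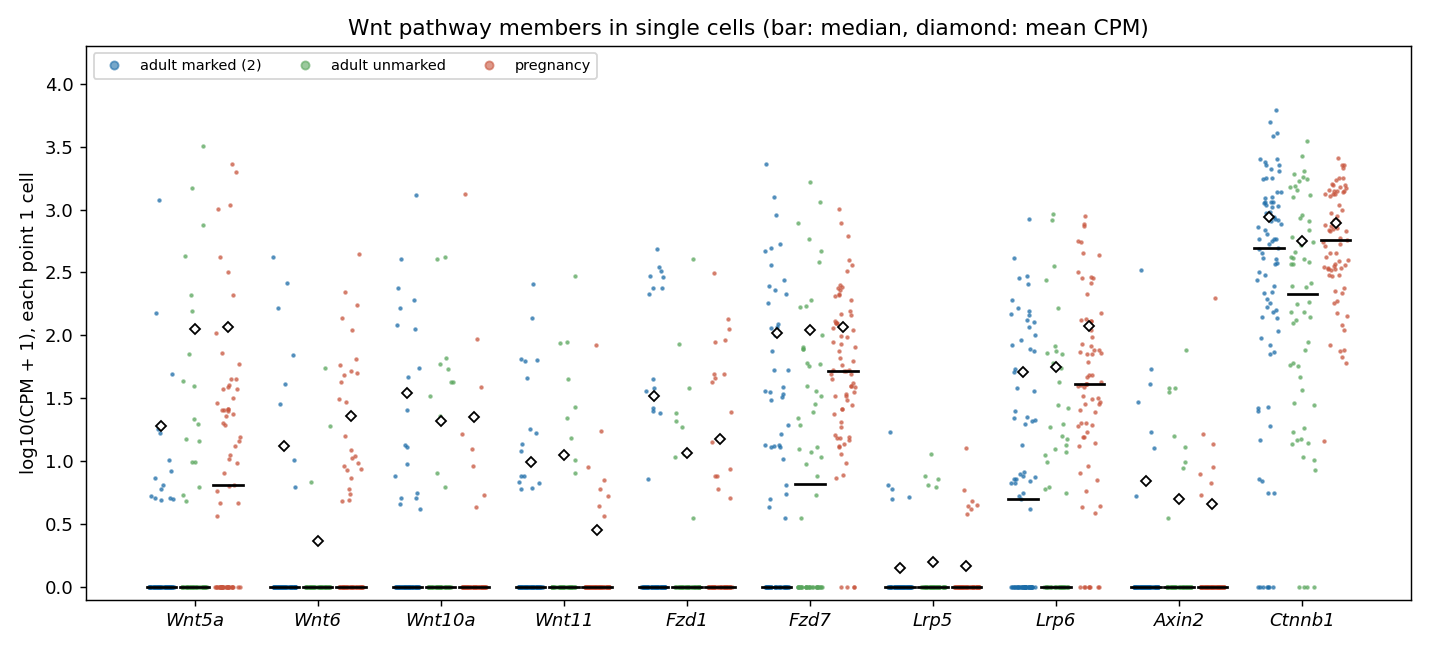
Level of each gene in each retained cell, as log10(CPM + 1) on the vertical axis, for 81 marked adult, 58 unmarked adult and 71 pregnancy cells, with bars at the median and diamonds at the mean CPM. For Fzd7 the 3 means sit together near 100 CPM while the pregnancy median, at 51.4 CPM, lies above both adult medians.

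Wnt5a (Entrez 22418, chr14:28504543-28527448), a ligand known mainly for signalling without beta-catenin, had a lowest, median and highest cell of 0, 0 and 1184 CPM in marked adult cells. The same values were 0, 0 and 3220.3 CPM in unmarked adult cells, and 0, 5.42 and 2305 CPM in pregnancy cells. The ranges overlapped throughout. At equal depth it was detected in 8 of 81 marked adult cells (9.88%, 95% CI 4.36 to 18.5%), in 14 of 58 unmarked adult cells (24.1%, 95% CI 13.9 to 37.2%) and in 29 of 71 pregnancy cells (40.8%, 95% CI 29.3 to 53.2%). Unthinned, the shares were 18.5%, 31.0% and 57.7%. The pregnancy interval lay above that of the marked set and overlapped that of the unmarked set.

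The mean of Wnt5a was 18.1 ± 132 CPM (SD over cells, n = 81) in the marked set, 112 ± 472 CPM (n = 58) in the unmarked set and 117 ± 394 CPM (n = 71) in pregnancy. On the log2 scale, with 10 CPM added to each mean, pregnancy was 2.17 above the marked set and 0.05 above the unmarked set, and the unmarked set was 2.12 above the marked set. The adult sets thus differed from each other by about as much as pregnancy differed from the marked set. One marked cell held 80.7% of the summed CPM of its group, and the highest cell held 49.6% in the unmarked set and 27.8% in pregnancy. Without the highest cell of each group the means were 3.55, 57.5 and 85.3 CPM.

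Wnt5a reached 100 CPM in 2 marked adult, 6 unmarked adult and 9 pregnancy cells. All 9 such pregnancy cells and both such marked cells held at least 6 of 11 core basal genes at that level. The cell with the highest Wnt5a level of all, in the unmarked set, held 8 core basal genes and 5 of 8 fibroblast genes. The next highest unmarked cell, at 1486.5 CPM, held none of the 11 core basal genes and all 7 of the pan-luminal list. The other 5 of the 6 unmarked cells at 100 CPM or more each held at least 6 core basal genes.

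Wnt6 (Entrez 22420, chr1:74754342-74785322), a ligand that acts through beta-catenin in several epithelia, ranged from 0 to 417 CPM in marked adult cells, from 0 to 53.6 CPM in unmarked adult cells and from 0 to 442 CPM in pregnancy cells, with a median of 0 in each. It was detected in 7 of 81 cells (8.64%, 95% CI 3.55 to 17.0%), 1 of 58 cells (1.72%, 95% CI 0.0436 to 9.24%) and 16 of 71 cells (22.5%, 95% CI 13.5 to 34.0%). With all reads counted, the shares were 9.88%, 5.17% and 36.6%. The share was highest in pregnancy, where its interval lay above that of the unmarked set and overlapped that of the marked set. Mean levels were 12.2 ± 57.4, 1.34 ± 7.41 and 21.9 ± 64.4 CPM, and the unmarked value rested on 8 reads. Pregnancy was 0.52 above the marked set and 1.49 above the unmarked set on the log2 scale.

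Wnt10a (Entrez 22409, chr1:74792019-74804176), also a ligand of the beta-catenin branch, went the other way in the number of cells. Its highest cells reached 1315 CPM in the marked set, 416 CPM in the unmarked set and 1337 CPM in pregnancy, with a median of 0 in each group. At equal depth it was detected in 11 of 81 cells (13.6%, 95% CI 6.98 to 23.0%), 9 of 58 cells (15.5%, 95% CI 7.35 to 27.4%) and 5 of 71 cells (7.04%, 95% CI 2.33 to 15.7%), and these intervals overlap. Without thinning the shares were 23.5%, 19.0% and 11.3%. Mean levels were 33.6 ± 156, 19.8 ± 76.2 and 21.3 ± 159 CPM, but a single pregnancy cell held 88.5% of the pregnancy sum. Without the highest cell of each group the means were 17.6, 12.8 and 2.48 CPM, and the log2 ratio of pregnancy over marked moved from -0.48 to -1.15, while TMMwsp scaling turned it to 0.08.

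Wnt6 and Wnt10a are neighbours on mouse chromosome 1, with 6696 bases between the gene ends in GRCm38.p6. Both were found together in 2 marked adult cells, 1 unmarked adult cell and none of 71 pregnancy cells. The same marked cell, number 4 by its title, had the highest Wnt10a level of its group and 260.5 CPM of Wnt6. Of the cells with Wnt10a, Wnt6 was found in 2 of 11 (18.2%, 95% CI 2.28 to 51.8%), 1 of 9 (11.1%, 95% CI 0.281 to 48.2%) and 0 of 5, intervals that hold the share of all cells with Wnt6 in each group.

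Wnt11 (Entrez 22411, chr7:98835084-98854747), a ligand linked to cell movements and kidney branching, did not reach a mean of 20 CPM in any group and was left out of the ratios. It ranged from 0 to 254 CPM in marked adult cells, from 0 to 298 CPM in unmarked adult cells and from 0 to 83.5 CPM in pregnancy cells, with medians of 0 and means of 8.81 ± 33.8, 10.2 ± 42.1 and 1.82 ± 10.1 CPM. It was detected in 7 marked adult cells (8.64%, 95% CI 3.55 to 17.0%), 6 unmarked adult cells (10.3%, 95% CI 3.89 to 21.2%) and 2 pregnancy cells (2.82%, 95% CI 0.343 to 9.81%). Without thinning it was found in 16, 9 and 8 cells. The means differed by more than 2-fold between pregnancy and both adult sets, but rested on 125, 47 and 31 reads, and the intervals of the shares overlapped.

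At least 1 of these 4 ligands was detected in 25 of 81 marked adult cells (30.9%, 95% CI 21.1 to 42.1%), 22 of 58 unmarked adult cells (37.9%, 95% CI 25.5 to 51.6%) and 42 of 71 pregnancy cells (59.2%, 95% CI 46.8 to 70.7%). Unthinned, the shares were 45.7%, 48.3% and 78.9%. Most cells with a ligand held only 1 of the 4, namely 18 marked adult, 15 unmarked adult and 33 pregnancy cells. Cells with 2 ligands numbered 6, 6 and 8, each group had 1 cell with 3, and no cell had all 4. At 100 CPM or more, the shares of cells with any of the 4 ligands were 14.8% (95% CI 7.90 to 24.4%), 15.5% (95% CI 7.35 to 27.4%) and 19.7% (95% CI 11.2 to 30.9%), and they overlapped. The pregnancy share was also nearer the adult ones, at 35.2% against 27.2% and 32.8%, when cells were thinned to 20000 read pairs.

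The 250 bases before an annotated start of Fzd7, a receptor found in more pregnancy cells, and of Axin2, the pathway's reference target, are shown because Tcf and Lef factors recognise short motifs of 7 letters. Both strands were searched for the spelling CTTTGAA, for the same motif written as CTTTGAT, for the variant that reads CTTTGTA and for the commonly quoted form CTTTGTT, none of which overlap another in these windows. Matches are in capitals. The start used for Axin2 is a transcript start inside the span of the gene given below. The windows are from RefSeq on GRCm38.p6, on the plus strand, at chr1:59481897-59482146 and chr11:108920099-108920348.
Fzd7: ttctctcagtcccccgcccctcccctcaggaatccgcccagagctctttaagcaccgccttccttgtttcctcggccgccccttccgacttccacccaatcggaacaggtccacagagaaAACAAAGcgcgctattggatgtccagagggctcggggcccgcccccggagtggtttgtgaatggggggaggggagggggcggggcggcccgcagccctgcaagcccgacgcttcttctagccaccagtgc
Axin2: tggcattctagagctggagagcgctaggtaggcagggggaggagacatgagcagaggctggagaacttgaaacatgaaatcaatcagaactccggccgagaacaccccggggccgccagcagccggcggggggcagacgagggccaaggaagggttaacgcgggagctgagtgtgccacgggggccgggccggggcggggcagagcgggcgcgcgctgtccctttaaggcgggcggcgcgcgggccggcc
The Fzd7 window holds 1 match, CTTTGTT read on the opposite strand, whose leftmost base lies 130 bases before the start, and the Axin2 window holds none. Of all 32851 windows of this length, 14.8% hold at least 1 match. Windows were at hand for 6 of the 10 genes, 2 of which (Fzd7 and Wnt11) hold a match.

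Fzd7 (Entrez 14369, chr1:59482147-59486955), a Frizzled receptor of basal and stem-like cells in several epithelia, ranged from 0 to 2292.5 CPM in marked adult cells with a median of 0. In unmarked adult cells it ranged from 0 to 1648.5 CPM with a median of 5.55 CPM, and in pregnancy cells from 0 to 1002 CPM with a median of 51.4 CPM. The upper quartile was 35.4, 57.4 and 127 CPM, so the middle of the pregnancy cells lay above the middle of both adult sets while the single highest cells were adult. Fzd7 was detected in 31 of 81 marked adult cells (38.3%, 95% CI 27.7 to 49.7%), 23 of 58 unmarked adult cells (39.7%, 95% CI 27.0 to 53.4%) and 56 of 71 pregnancy cells (78.9%, 95% CI 67.6 to 87.7%). With all reads counted, the shares were 46.9%, 53.4% and 94.4%.

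The means of Fzd7 hardly moved, at 104 ± 316, 109 ± 291 and 115 ± 173 CPM, which puts pregnancy 0.14 and 0.07 above the marked and unmarked sets on the log2 scale. In the cells where it was detected, the mean was 268 and 271 CPM in the adult sets and 142 CPM in pregnancy. The 5 highest cells held 65.2% and 73.4% of the summed level in the adult sets, against 38.5% in pregnancy. The medians of the cells with the transcript were 99.7, 77.5 and 82.1 CPM. When the log2 values of single cells were averaged in place of the CPM, pregnancy was 1.38 and 1.21 above the marked and unmarked sets.

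Fzd1 (Entrez 14362, chr5:4753839-4758216), another Frizzled receptor, was found in few cells. Its lowest, median and highest cells were 0, 0 and 483 CPM in the marked set, 0, 0 and 406 CPM in the unmarked set and 0, 0 and 313 CPM in pregnancy. At equal depth it was detected in 13 of 81 (16.0%, 95% CI 8.83 to 25.9%), 5 of 58 (8.62%, 95% CI 2.86 to 19.0%) and 13 of 71 cells (18.3%, 95% CI 10.1 to 29.3%), and all 3 intervals overlap. Without thinning the shares were 18.5%, 15.5% and 22.5%. Mean levels were 32.2 ± 93.8, 10.5 ± 54.3 and 13.9 ± 44.7 CPM. The unmarked set was lower than the marked set by a log2 ratio of -1.04, and the single highest unmarked cell held 66.4% of the unmarked sum. Fzd1 reached 100 CPM in 8 marked adult cells, 1 unmarked adult cell and 3 pregnancy cells.

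**Figure D2:**
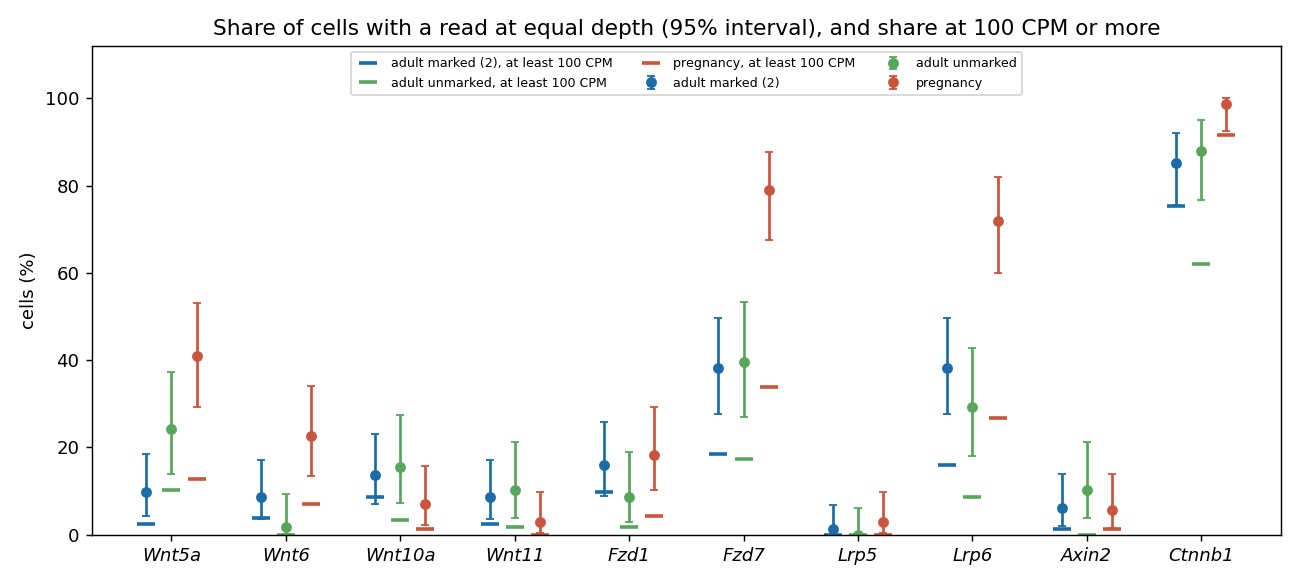
Share of cells with at least 1 read of each gene after thinning to 50000 reads, in percent, as points with exact 95% intervals, and share of cells at 100 CPM or more as short bars, for the 3 groups. The pregnancy intervals of Fzd7 (67.6 to 87.7%) and Lrp6 (59.9 to 81.9%) lie above both adult intervals. Of all 8174 genes over the filter, 11.5% met this condition and 0.306% the opposite one.

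Lrp6 (Entrez 16974, chr6:134446476-134566913), the co-receptor that is phosphorylated when Wnt and Frizzled bind, ranged from 0 to 845 CPM in marked adult cells with a median of 4.02 CPM, and from 0 to 920.4 CPM in unmarked adult cells with a median of 0. In pregnancy cells it ranged from 0 to 883 CPM with a median of 39.8 CPM. It was detected in 31 of 81 (38.3%, 95% CI 27.7 to 49.7%), 17 of 58 (29.3%, 95% CI 18.1 to 42.7%) and 51 of 71 cells (71.8%, 95% CI 59.9 to 81.9%). Maxima were alike, and pregnancy stood apart by the share of cells with the transcript. Unthinned, the shares were 51.9%, 44.8% and 88.7%.

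The mean of Lrp6 was 50.3 ± 119 CPM in the marked set, 54.7 ± 168 CPM in the unmarked set and 118 ± 192 CPM in pregnancy. On the log2 scale pregnancy was 1.09 above marked adult cells and 0.99 above unmarked adult cells, just short of 2-fold against the latter with the 10 CPM added to each mean, although the means themselves differ by more than 2-fold from both. In cells with the transcript the mean was 129, 181 and 161 CPM, with pregnancy between the adult sets. Without the highest cell of each group the means were 40.4, 39.6 and 107 CPM and both ratios passed 2-fold. The ratio over the unmarked set was smaller with reads pooled per group, at 0.13, in cells with at least 100000 read pairs and 1500 genes, at 0.33, and with TMMwsp scaling, at 0.64.

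Lrp5 (Entrez 16973, chr19:3584825-3686585), the other co-receptor for Wnt ligands, had 8 reads in 81 marked adult cells (exact Poisson interval 3.45 to 15.8), 5 reads in 58 unmarked adult cells (interval 1.62 to 11.7) and 11 reads in 71 pregnancy cells (interval 5.49 to 19.7). It was detected at equal depth in 1, 0 and 2 cells, and the 0 of 58 allows a share of up to 5.17% by the limit of 3 counts and 6.16% by the exact interval. The highest cell of any group held 15.9 CPM. Lrp6 therefore carried nearly all the reads of the pair in each group, and no difference in Lrp5 was detectable at this depth.

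The intervals of Fzd7 and Lrp6 made them the 2 of 7 genes over the filter whose share of cells with a read was above that of both adult sets, a measure chosen after the data had been seen. Of all 8174 genes that averaged 20 CPM or more in any group, 11.5% met the same condition, and 0.306% met the opposite one, as did 0 of the 7. Pregnancy cells held more genes at equal depth, so the shares were also taken in cells with 2000 to 3000 detected genes. There Fzd7 was found in 14 of 34 marked (41.2%, 95% CI 24.6 to 59.3%), 5 of 24 unmarked (20.8%, 95% CI 7.13 to 42.2%) and 20 of 27 pregnancy cells (74.1%, 95% CI 53.7 to 88.9%). Lrp6 was found in 12 of 34 (35.3%, 95% CI 19.7 to 53.5%), 7 of 24 (29.2%, 95% CI 12.6 to 51.1%) and 17 of 27 (63.0%, 95% CI 42.4 to 80.6%). Pregnancy stayed highest for both genes, but neither gene's pregnancy interval was clear of both adult ones. The Fzd7 interval lay above the unmarked one and overlapped the marked one, and the Lrp6 interval overlapped both. The parts of cell number and gene number in this were not tested. With thinning to 20000 read pairs only Lrp6 met the condition, and at 100 CPM or more neither did.

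Fzd7 and Lrp6 were found together in 11 of 81 marked adult cells (13.6%, 95% CI 6.98 to 23.0%), 8 of 58 unmarked adult cells (13.8%, 95% CI 6.15 to 25.4%) and 39 of 71 pregnancy cells (54.9%, 95% CI 42.7 to 66.8%). Within each group, the share with Lrp6 was not separated between cells with and without Fzd7. The shares with Lrp6 were 35.5% against 40.0% in the marked set, 34.8% against 25.7% in the unmarked set and 69.6% against 80.0% in pregnancy. A member ligand, a Frizzled of the pair and an Lrp co-receptor were all found in 6 marked adult cells (7.41%, 95% CI 2.77 to 15.4%), 6 unmarked adult cells (10.3%, 95% CI 3.89 to 21.2%) and 29 pregnancy cells (40.8%, 95% CI 29.3 to 53.2%). A further 7, 3 and 12 cells held the receptor pair without any of the 4 ligands. The median pregnancy cell held 3221 genes at equal depth, against 2312 and 2220.5 in the marked and unmarked sets. These combined shares were not compared with those of other gene sets, nor taken in cells of equal gene number. The part of gene number in them was not tested.

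**Figure D3:**
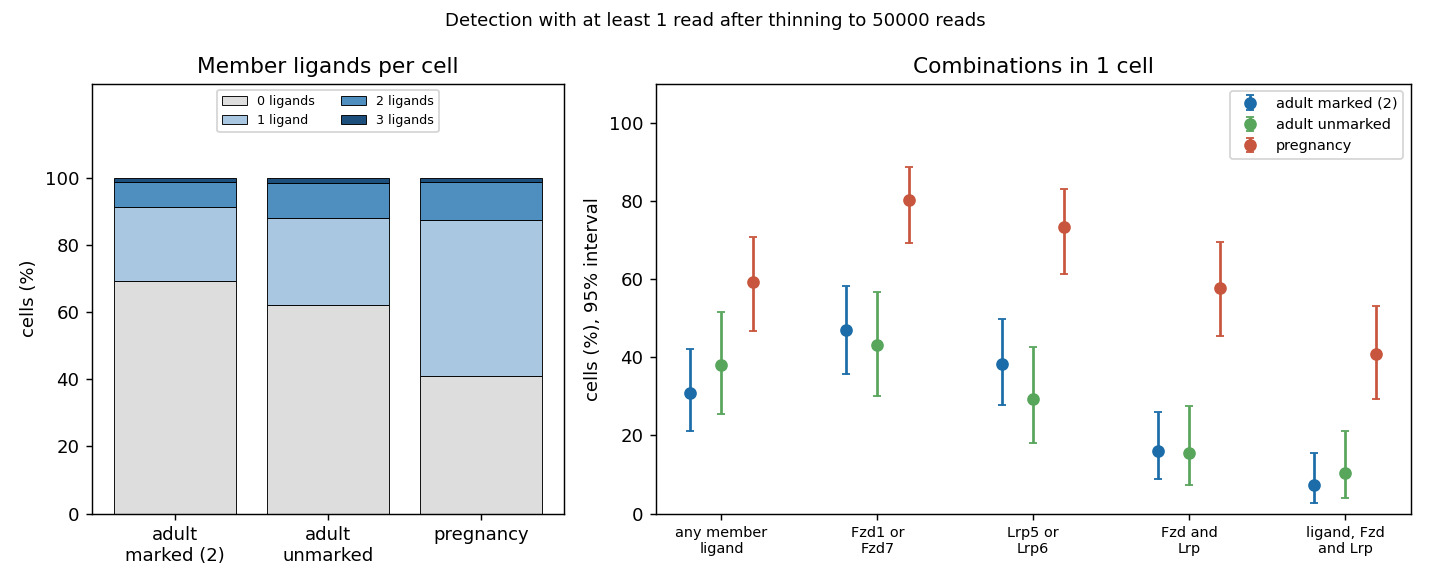
Left, share of cells, in percent, with 0, 1, 2 or 3 of the 4 member ligands. Right, share of cells with any of the ligands, with Fzd1 or Fzd7, with Lrp5 or Lrp6, and with combinations of these, with exact 95% intervals, where the combination of all 3 kinds was found in 29 of 71 pregnancy cells.

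Axin2 (Entrez 12006, chr11:108917828-108950783), a feedback inhibitor whose transcription beta-catenin drives, stayed below the filter, with means of 5.97 ± 37.3, 3.98 ± 12.8 and 3.54 ± 23.6 CPM and medians of 0. At equal depth it was detected in 5 of 81 marked adult cells (6.17%, 95% CI 2.03 to 13.8%), 6 of 58 unmarked adult cells (10.3%, 95% CI 3.89 to 21.2%) and 4 of 71 pregnancy cells (5.63%, 95% CI 1.56 to 13.8%). Without thinning it was found in 7, 9 and 7 cells. The number of cells with Axin2 did not show the wider spread over pregnancy cells that Fzd7 and Lrp6 had. With 113, 33 and 36 reads in the 3 groups, that number cannot show whether Axin2 rose in pregnancy or not. The highest cells held 329 CPM in the marked set, 75.9 CPM in the unmarked set and 198 CPM in pregnancy, and the first and last of these carried 68.2% and 78.9% of the summed level of their groups.

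Of the 15 cells with Axin2, 14 held at least 6 core basal genes at 100 CPM. At least 3 genes of another list, such as the pan-luminal or fibroblast one, reached that level in 1 marked adult, 2 unmarked adult and 2 pregnancy cells with Axin2. Axin2 was found in 1 of 25 marked adult cells with a member ligand against 4 of 56 without, in 2 of 22 against 4 of 36 in the unmarked set, and in 1 of 42 against 3 of 29 in pregnancy. With the receptor pair, Axin2 was found in 1 of 13, 3 of 9 and 2 of 41 cells, against 4 of 68, 3 of 49 and 2 of 30 of the other cells. With so few cells, no difference was detectable at this depth. The pregnancy cell with the most Axin2 gave 54.3% of its reads to mitochondrial genes and held 5 of 8 fibroblast genes beside 10 core basal genes.

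Ctnnb1 (Entrez 12387, chr9:120933400-120960507), which encodes the transducer beta-catenin and also serves cell adhesion, ranged from 0 to 6206 CPM in marked adult cells, from 0 to 3483 CPM in unmarked adult cells and from 13.5 to 2544 CPM in pregnancy cells, with medians of 493, 213 and 569 CPM. It was detected in 69 of 81 (85.2%, 95% CI 75.6 to 92.1%), 51 of 58 (87.9%, 95% CI 76.7 to 95.0%) and 70 of 71 cells (98.6%, 95% CI 92.4 to 100.0%). With all reads counted, the shares were 91.4%, 93.1% and 100.0%. Only pregnancy had no cell without a read, and the ranges of all 3 groups overlapped. Mean levels were 871 ± 1143, 561 ± 762 and 785 ± 634 CPM, so that pregnancy was -0.15 from the marked set and 0.48 above the unmarked set on the log2 scale, and lay between both adult sets. With TMMwsp scaling, which adjusts for the make-up of each cell's RNA, the ratio over the marked set was 0.08. With log2 values of single cells averaged, pregnancy was 0.76 above the marked set.

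Per length, as mean CPM per kilobase of exon (RPKM), Ctnnb1 was the highest of the 10 genes in every group, at 240.4 in the marked set, 155 in the unmarked set and 217 in pregnancy. Fzd7 followed in the marked set at 21.5 RPKM, then Wnt10a at 17.1 RPKM. Wnt5a, at 25.6 and 26.7 RPKM, was next after Ctnnb1 in the unmarked set and in pregnancy, ahead of Fzd7 at 22.6 and 23.9 RPKM. The SDs over cells exceeded the means of Wnt5a, Fzd7 and Wnt10a, and the order of these 3 did not stand clear of that spread. Lrp6, the longest transcript of the 10 at 9368 bases of exon, came to 5.37, 5.84 and 12.6 RPKM, and Lrp5 was lowest in each group at 0.0825, 0.114 and 0.0908 RPKM.

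In mean level, 7 of the 10 genes passed the filter and 0 of them were at least 2-fold higher in pregnancy than in both adult sets, where 9.87% of all 8174 genes were. Likewise 0 were at least 2-fold lower than both, against 5.25% of all genes. Against the marked set alone, Wnt5a and Lrp6 were at least 2-fold higher (18.0% of all genes) and none was as much lower (14.8%). Against the unmarked set alone, Wnt6 was at least 2-fold higher (20.9% of all genes) and none was as much lower (16.8%). Between the adult sets, Wnt5a was at least 2-fold higher (16.8% of all genes) and Fzd1 at least 2-fold lower (18.0%) in the unmarked set. The median log2 ratio of the 7 genes was 0.14 against marked adult cells and 0.22 against unmarked ones, beside 0.05 and 0.08 for all genes.

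**Figure D4:**
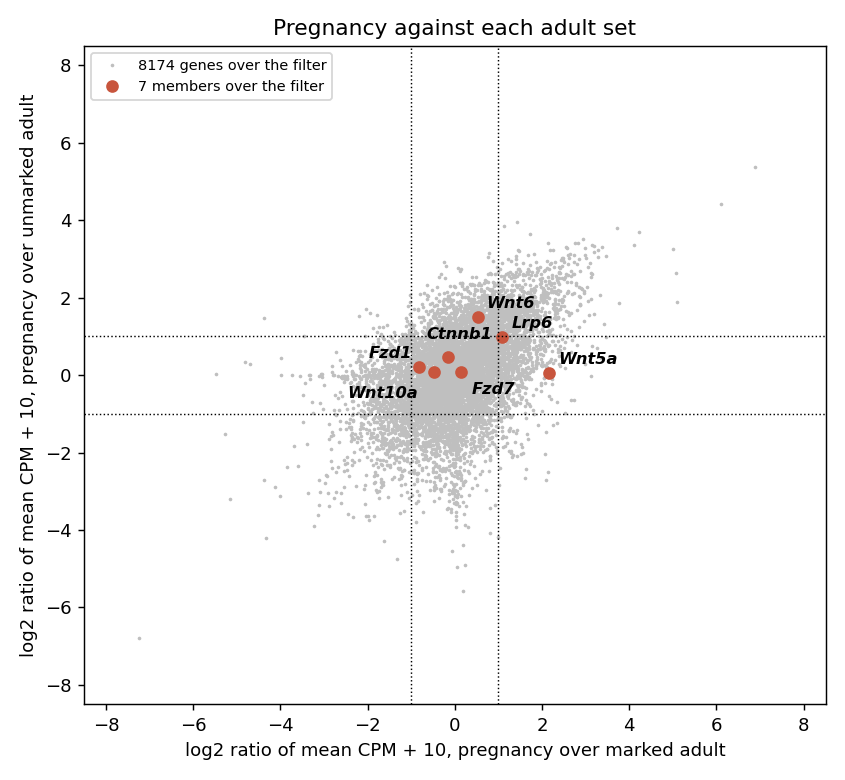
Log2 ratio of mean CPM, with 10 CPM added, of pregnancy over the marked adult set (horizontal) and over the unmarked adult set (vertical) for the 8174 genes over the filter in grey and 7 of the 10 Wnt genes in red, with dotted lines at 2-fold. Lrp6 sits at the corner of both lines and Wnt5a is far to the right but level with the unmarked set.

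Fzd7, Lrp6 and Ctnnb1, each detected in at least 25% of retained cells, were compared with 3706 other genes, as a description only. The measure was the mean of 3 within-group Spearman correlations of thinned counts. The labels name no capture runs, so these correlations may mix cells of different runs. The immediate early gene Fos was most like Fzd7, with a mean rho of 0.32 made of 0.10, 0.40 and 0.46 in the marked, unmarked and pregnancy cells. For Lrp6 the first was Rnf2, a subunit of a Polycomb complex, at 0.35, followed by Spats2l and Coq10b at 0.31. For Ctnnb1 the first was the histone methyltransferase gene Ash1l at 0.32, followed by the kinase gene Rock1 at 0.32 and the adaptor gene Ap2a2 at 0.31. These values are weak, and the 3 genes correlated with each other between -0.036 and 0.24 in single groups. Lrp6 and Ctnnb1 counts also went with the number of genes detected per cell in the adult sets, with a rho of 0.39 and 0.41 for Lrp6 and 0.35 and 0.36 for Ctnnb1, and for Fzd7 with 0.15 and 0.12.

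The pathway was also read list by list, grouped by role. Of all 8174 genes over the filter, 9.87% were at least 2-fold higher and 5.25% at least 2-fold lower in pregnancy than in both adult sets. The counts of every list below stand beside these shares, and no list was tested against them. Among the other genes of the pathway, the ligands were few. Of 19 Wnt ligand genes, 4 passed the filter, 0 were at least 2-fold higher and 1 was at least 2-fold lower in pregnancy than in both adult sets. That one was Wnt5b, at 40.8, 34.1 and 10.1 CPM, whose ratio over the unmarked set went from -1.14 to 0.09 without the highest cells. Of 3 secretion genes, 2 passed the filter and neither was 2-fold different from both sets. Wls, the carrier that takes Wnt proteins to the cell surface, was at 279.7, 349.8 and 586 CPM and was detected in 64.2%, 60.3% and 81.7% of cells. The transport gene was thus found in far more cells than any of the ligands.

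Of 10 Frizzled genes, 5 passed the filter, 1 was at least 2-fold higher in pregnancy and 0 were lower. Fzd4, a receptor also used by norrin in blood vessels, had a single read over all marked adult cells, 19 reads in the unmarked set and 351 in pregnancy. With reads pooled over the cells of a group and scaled to the pooled total, which weights deeper cells more than a mean CPM does, pregnancy was at 322 times the marked set (counting interval 57.3 to 12700.0) and 7.92 times the unmarked set (interval 5.00 to 13.3), and it was detected in 26.8% of pregnancy cells against 0% and 3.45%. Any of the 10 Frizzled genes was found in 63 of 81 marked adult cells (77.8%, 95% CI 67.2 to 86.3%), 39 of 58 unmarked adult cells (67.2%, 95% CI 53.7 to 79.0%) and 69 of 71 pregnancy cells (97.2%, 95% CI 90.2 to 99.7%). This share of cells with any Frizzled was not taken in cells of equal gene number either. Of 6 co-receptor genes, 4 passed the filter and none was 2-fold different from both adult sets. The highest per length was the kinase-like receptor Ryk, at 248, 124 and 189.8 CPM.

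Of 9 genes of the R-spondin axis, which sets how much Frizzled and Lrp6 stay on the surface, 6 passed the filter and 1 was at least 2-fold lower in pregnancy. Lgr5, an R-spondin receptor and also a Wnt target, had means of 102, 61.5 and 13.7 CPM and was detected in 27 of 81 (33.3%, 95% CI 23.2 to 44.7%), 23 of 58 (39.7%, 95% CI 27.0 to 53.4%) and 4 of 71 cells (5.63%, 95% CI 1.56 to 13.8%). Its interval in pregnancy lay below both adult intervals, opposite to Fzd7 and Lrp6, as it did for 0.306% of all genes over the filter. Lgr4, its relative, was found in 92.6%, 93.1% and 100.0% of cells at 626, 714 and 1271 CPM. Axin2 and Lgr5 were found in the same cell in 3 marked adult cells, 1 unmarked adult cell and 0 of 71 pregnancy cells.

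Of 12 genes of the destruction complex and its transducers, 10 passed the filter and 0 were 2-fold different from both adult sets in either direction, with Ctnnb1 the highest per length. Of 8 nuclear effectors, 5 passed and 1 was lower, Tcf7, a Tcf factor that is itself a target, at 52.1, 66.7 and 13.9 CPM. Its ratio over the marked set went from -1.38 to -0.35 without the highest cells. Tcf7l2, the Tcf factor highest per length, was at 319.6, 352 and 408 CPM. Of 12 target genes, 8 passed, 0 were higher and 2 were lower, Lgr5 and Tcf7, and Myc, the target highest per length, was at 450.1, 111 and 294 CPM with pregnancy between the adult sets. The median log2 ratio of these 8 targets was -0.39 with marked adult cells as the base and 0.99 with unmarked ones, and the choice of adult set thus set its sign.

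Of 12 secreted antagonists, 6 passed the filter, 2 were higher and 1 was lower in pregnancy than in both adult sets. Sfrp2, which binds Wnt proteins, was at 4.60, 16.3 and 104 CPM, and Sostdc1, which binds Lrp6, at 19.3, 41.1 and 219.9 CPM. Dkk3 was lower, at 244, 290.1 and 19.5 CPM, and Wif1, highest per length of the list, was at 344, 245 and 530.1 CPM. Of 8 planar polarity genes, 6 passed, 0 were higher and 1 was lower. That one, the atypical cadherin gene Celsr1, was at 86.2 and 142 CPM in the adult sets with 4 reads over all pregnancy cells, and the formin gene Daam1, highest per length, was at 95.7, 131 and 82.6 CPM. Of 5 adhesion genes all passed, 0 were higher and 1 was lower, Cdh1, which encodes E-cadherin, a binding partner of beta-catenin, at 62.6, 68.3 and 26.1 CPM. The ratio of Cdh1 over the unmarked set went from -1.12 to 0.36 without the highest cells, and the alpha-catenin gene Ctnna1, highest per length, was at 607, 549 and 507 CPM.

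**Figure D5:**
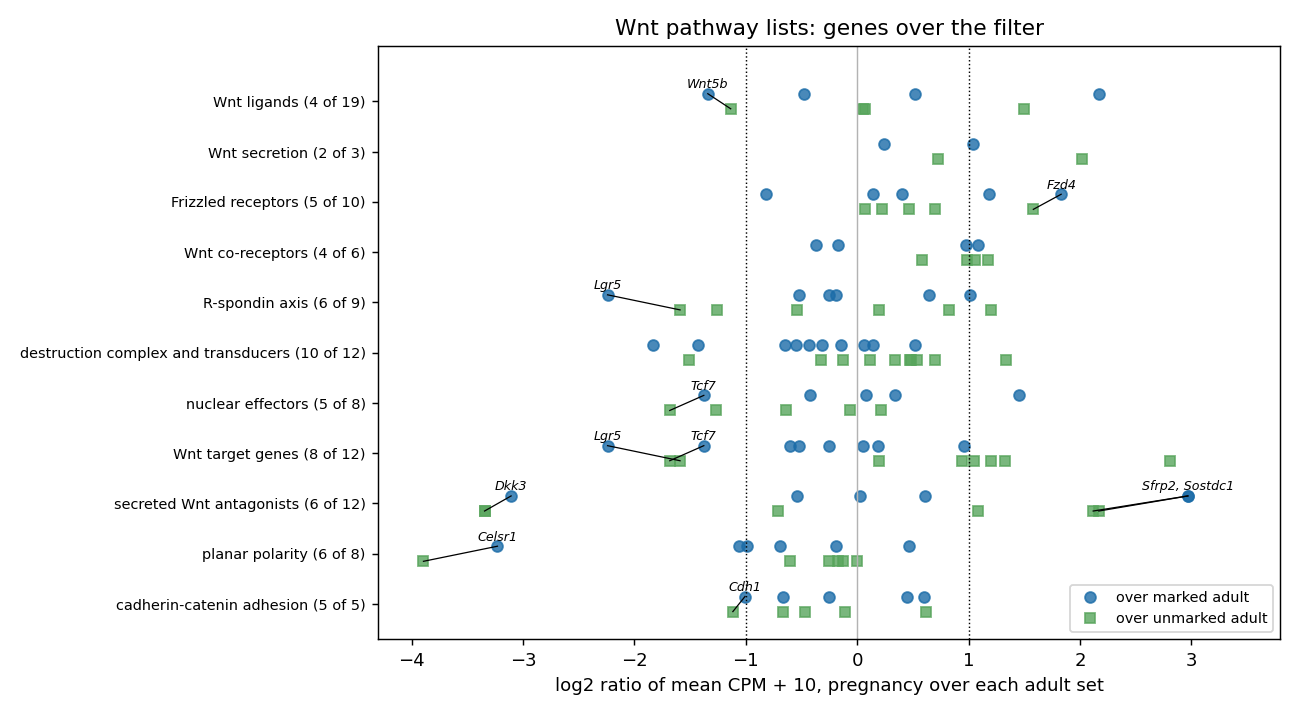
Log2 ratio of mean CPM, with 10 CPM added, of pregnancy over the marked (circles) and the unmarked (squares) adult set, for the genes over the filter in each of 11 pathway lists, with the number of genes shown of the number listed. Named genes differed at least 2-fold in the same direction from both adult sets, 3 upward (Fzd4, Sfrp2, Sostdc1) and 6 downward. Of all 8174 genes over the filter, 9.87% differed so upward and 5.25% downward.

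Some reads of 3 of the 10 genes could come from a gene on the opposite strand. Ctnnb1 shares 476 bases at 100.0% identity with a Ulk4 transcript, Wnt11 shares 364 with a Gm8398 transcript and Axin2 shares 104 with a Gm11670 transcript, each on the other strand. Whether counting used the strand is not given in the sources used here, so reads from these stretches cannot be told apart. No other transcript shared at least 75 bases at 98% identity or more with the longest transcript of any of the 10 genes. In RefSeq, Wnt6, Wnt10a, Wnt11, Lrp5 and Lrp6 each overlap a long noncoding RNA gene and Ctnnb1 overlaps the microRNA gene Mir7090, and none of these was counted separately.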

How the data were processed

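The authors deposited raw counts of read pairs for 312 single cells, by Entrez gene ID and without normalization. Per the study's methods and the submitters' processing notes, the authors aligned read pairs to mm10 with Subread (version 1.5.0) and counted them with featureCounts on its built-in RefSeq annotation. The counts have no molecular identifiers, so copies made by PCR count separately and intervals cover counting error only. Symbols, matched for 25275 of 27179 IDs, came from RefSeq on GRCm38.p6. The 1904 IDs without one held 1.66% of reads and were left out, as were 15 mitochondrial and 124 ribosomal protein genes. No 2 cells had identical counts. No doublet caller was run here, and the study inspected capture sites by microscopy.

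Groups came from the labels. The 10 genes, the pathway and marker lists and the measures were chosen with earlier results of these data known. For each gene that averaged 20 CPM or more in any group, the log2 ratio of mean CPM with a pseudocount of 10 CPM was taken, which understates changes of low genes, and a gene was called at 2-fold or more. Named were the 10 genes and, from each of 11 pathway lists, genes called in the same direction against both adult sets that averaged 20 CPM or more in the higher group and the gene with the highest RPKM, besides up to 3 genes most like a member with a mean rho of at least 0.3. Alternatives changed the pseudocount, scaling (edgeR 4.0.16, TMMwsp), filter, thinning, cells and the highest cell. The script was tested on simulated counts with planted changes, drawn from a shared profile for all cells of a group. Such counts lack the variation between cells seen in these genes, so the test does not cover it. Python 3.11.15, numpy 2.4.6, scipy 1.17.1, pandas 2.3.3, blastn 2.17.0 and R 4.3.3 were used.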

Additional observations from a re-analysis of the deposited data

Results flagged for a closer look

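Cells left out for few read pairs or genes still held reads of these genes, above the 3 reads that a count of 0 allows. The 98 adult cells left out, with 1171743 read pairs in all, held 20 reads of Wnt5a, 9 of Wnt6, 7 of Wnt10a, 4 of Wnt11, 133 of Fzd1, 77 of Fzd7, 8 of Lrp5, 137 of Lrp6, 9 of Axin2 and 1893 of Ctnnb1. The 4 pregnancy cells left out, with 93619 read pairs, held 6 reads of Fzd1, 12 of Fzd7, 19 of Lrp6 and 82 of Ctnnb1. Per 1000000 read pairs summed over cells, Fzd1 stood at 114 in the adult cells left out against 20.9 in those retained, Ctnnb1 at 1615.5 against 804 and Lrp5 at 6.83 against 0.590. Lrp6 stood at 117 in the adult cells left out against 68.7 in those retained, beside 101 in the retained pregnancy cells. Fzd7 went the other way, at 65.7 against 92.0, beside 119 in the retained pregnancy cells. Wnt5a was lower in the cells left out, at 17.1 against 53.9, and Wnt10a at 5.97 against 27.5.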

How the results depend on the processing

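No paired analysis was possible because the replicate numbers only number the cells and the results come from no test. Among the genes over the filter, the number at least 2-fold higher in pregnancy than in both adult sets went from 0 to 1 (Lrp6) with a pseudocount of 1 CPM, without the highest cell of each group and in cells with at least 6 core basal genes, and to 2 (Fzd7 and Lrp6) with averaged log2 values. None of the genes over the filter was lower than both under any alternative run, while Wnt11, under the filter, was at -1.80 and -1.99 with a pseudocount of 1 CPM. The number higher in the unmarked than in the marked set went from 1 to 0 with a pseudocount of 100 CPM and with averaged log2 values, and so did the number lower. The number lower was 2 (Wnt6 and Fzd1) with a pseudocount of 1 CPM, with reads summed per group and in cells with at least 6 core basal genes. The number detected in more pregnancy cells, 2, was 4 without thinning (Wnt5a and Wnt6 added), 1 (Lrp6) with thinning to 20000 reads, 0 at 100 CPM and 0 in cells with 2000 to 3000 genes, the last an alternative chosen after seeing the data. Shares of cells with any of the 4 ligands were 45.7% (marked) and 78.9% (pregnancy) without thinning, 35.2% (pregnancy) with thinning to 20000 reads, and 14.8%, 15.5% and 19.7% (marked, unmarked and pregnancy) at 100 CPM. The cause was not tested where the construction does not show it. TMMwsp scaling moved the median ratio of all genes over the marked set from 0.05 to 0.33 and over the unmarked set from 0.08 to 0.31. Of 300 ratios of single genes under alternatives, 193 stayed within the counting error of their reads and 107 moved beyond it. None of those that had passed 2-fold changed sign. Leaving out the filter on low values cannot move a ratio, so the ratios of that setting are among the 193 by construction. Depth limits Lrp5, Axin2 and Wnt11 in all groups and Wnt6 in the unmarked set, where it had 8 reads.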
